A study of Anser anser with 2 samples.

Results

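The epithelial miRNAs miR-141, miR-200, miR-203, miR-205 and miR-429 were followed in the liver of Landes geese with and without overfeeding. This set was chosen with earlier results of these data known, and its reads were then taken by name alone. Every deposited read sequence (tag) whose best matching reference miRNA carries any of these numbers was kept, whatever the letter, arm or species. This gave 187 distinct tags under 21 reference names, which make up 6 of the 1174 miRNAs in the tables, counted by joined name and arm. The 6 are both arms of miR-200a and miR-200b, the 3p arm of miR-429 and the 3p arm of miR-203. No tag carried the name miR-141, miR-200c or miR-205.

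The birds were 60 male Landes geese aged 90 days, split into 2 groups. The control group had free access to a basal diet with 2873 kcal and 171 g of protein per kg. The overfed group was given a carbohydrate-rich diet over 21 days, with 3353 kcal, 76 g of protein and 15 g of fat per kg, and its liver is labelled fatty. The groups thus differ both in the diet and in the way of feeding, which cannot be told apart here. The word overfed stands for both together. Each condition has 1 library of liver small RNA, and the number of birds behind it is not stated in the labels. Depth was 9178938 listed miRNA reads for the control and 9737540 for the overfed library. miR-122-5p, the hepatocyte miRNA, held 72.7% and 74.4% of them. Without replicates no test between conditions was made: each difference is one between these libraries, and each 95% interval covers counting error only.

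miRNAs pair through their seed, bases 2 to 8 from the 5′ end, with sites in target mRNAs and lower the output of those mRNAs. The miR-200 family holds cells in the epithelial state by repressing, in mammals, the ZEB transcription factors, which in turn repress the miR-200 genes. In liver its members are known mainly from bile duct epithelium. miR-203 is best known from stratified epithelium, and in mouse skin it represses the stem cell factor p63 and takes cells out of division, and miR-205 is another miRNA of stratified epithelium. In vertebrates miR-200a, miR-200b and miR-429 are encoded together, and miR-200c and miR-141 in a second cluster.

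The references to which the main tags were matched are shown to set the seeds side by side, in the letters of the deposited tags (T for U) and with bases 2 to 8 in capitals.
miR-200a-3p: tAACACTGtctggtaacgatgtt
miR-200b-3p: tAATACTGcctggtaatgatgat
miR-429-3p: tAATACTGtctggtaatgccgt
miR-203-3p: gTGAAATGtttaggaccacttg
The seed of miR-200b-3p is also that of miR-429-3p, whereas miR-200a-3p differs from it by 1 base, T4C (miR-200b-3p first, positions counted from 1 at the 5′ end). Outside the seed miR-200b-3p and miR-200a-3p differ at C9T, T17C and A22T. miR-200b-3p and miR-429-3p differ at 4 of 22 compared bases, none of them in the seed. miR-203-3p has a seed of its own. No tag listed under another name held bases 2 to 15 of any of these references.

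The main comparison asked how the miR-200 members and miR-203 stood in overfed against control liver. They differed in direction: miR-203 stood at 5.07-fold of its control level after overfeeding, and the miR-200 family as a whole at 0.762-fold. In reads per 1000000 listed miRNA reads (RPM), miR-203-3p was at 43.1 in control liver and at 219 in overfed liver, from 396 and 2132 reads. Its log2 ratio was 2.34 (exact 95% interval 2.19 to 2.50). All arms of the miR-200 family summed to 82.5 RPM in the control and 62.8 in overfed liver, from 757 and 612 reads, a log2 ratio of -0.39 (-0.55 to -0.24).

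Among the 139 miRNAs of the tables with a mean of at least 10 RPM, 3 of the 6 members are included: miR-203-3p, miR-200a-3p and miR-200b-3p. A miRNA was counted as different when its ratio was at least 2 times in either direction with an interval that excluded 1. That was so for 8.63% of the 139, or 12 miRNAs (10 higher, 2 lower), and for 1 of the 3 members, miR-203-3p. None of the miR-200 arms was among the 1.44% that were lower by that rule. Under edgeR's TMM scaling, which shifts every log2 ratio by -0.24, the split was 3 higher and 7 lower, with miR-203-3p at 2.11. miR-203-3p ranked first of the 139 by log2 ratio, and 50th by mean level. The median log2 ratio of the 139 was 0.10. By the counting interval alone, 44.6% of the 139 miRNAs were higher, miR-203-3p among them, and 30.9% were lower, including miR-200a-3p as well as miR-200b-3p. A lower value beyond counting error was therefore common in these libraries. The shares of 44.6% and 30.9% are for scaling to the listed reads and depend on it. The TMM shift of -0.24 is larger in size than the median of 0.10, so it puts most of these 139 ratios below 0.

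**Figure D1:**
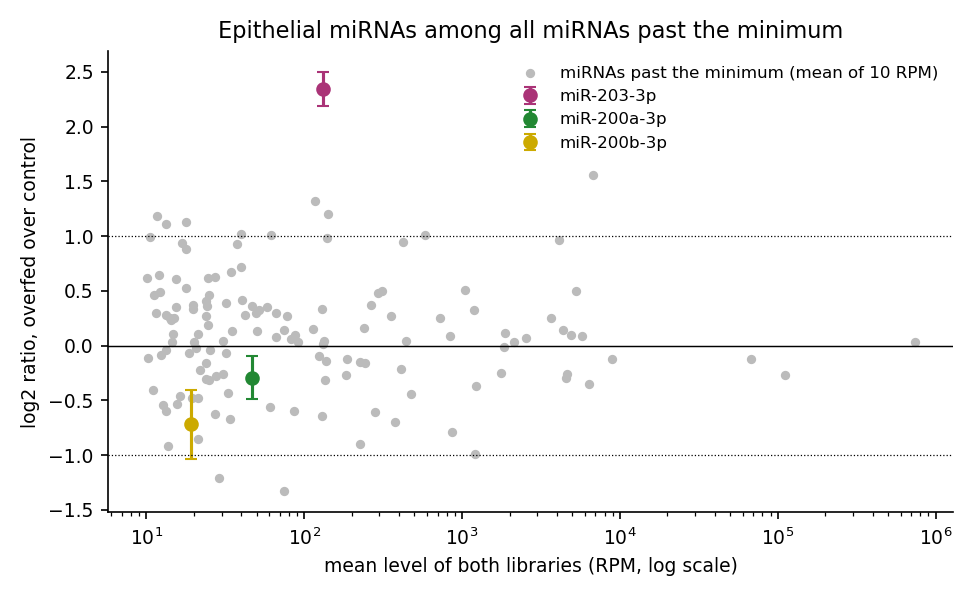
Log2 ratio of overfed over control (vertical) against mean level in RPM (horizontal, log scale) for the 139 miRNAs with a mean of at least 10 RPM, with 95% counting intervals for the 3 members among them and dotted lines at 2 times. miR-203-3p lies above all other points at 2.34, while miR-200a-3p at -0.29 and miR-200b-3p at -0.72 lie below 0.

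The balance between miR-203 and the miR-200 family can be read within each library and does not depend on the scaling. In the control library there were 0.523 miR-203 reads for each miR-200 family read, and in the overfed library 3.48. The ratio of these ratios was 6.66-fold, a log2 value of 2.74 (exact conditional interval 2.51 to 2.96). miR-203 thus made up 34.3% of the 1153 member reads of control liver (exact Clopper-Pearson bounds 31.6% and 37.2%). Of the 2744 member reads of overfed liver it made up 77.7% (76.1% to 79.2%). Set against single members, miR-203-3p gained by a log2 value of 2.63 (2.38 to 2.89) on miR-200a-3p, of 3.06 (2.71 to 3.41) on miR-200b-3p and of 2.58 (1.88 to 3.28) on miR-429-3p.

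The members of the miR-200 family were all scarce. miR-200a-3p, the most abundant of them, stood at 51.5 RPM in the control (counting interval 47.0 to 56.4) and 42.1 in overfed liver (38.1 to 46.4), a log2 ratio of -0.29 (-0.49 to -0.10). miR-200b-3p, which shares its seed with miR-429, stood at 24.0 RPM (20.9 to 27.4) and 14.6 (12.3 to 17.2), a log2 ratio of -0.72 (-1.03 to -0.41). Both were lower in the overfed library by more than counting error, and neither by 2 times. miR-429-3p had 41 and 37 reads, or 4.47 and 3.80 RPM, with a log2 ratio of -0.23 (-0.91 to 0.44), so no difference was detectable at this depth.

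The 5p arms of the family, usually the passenger strands, were near the limit of the depth. miR-200b-5p had 20 and 21 reads, with a log2 ratio of -0.01 (-0.97 to 0.94), which was at 0.08 when scaled without miR-122-5p. miR-200a-5p had 3 and 2 reads, too few for a ratio to be read. The share of the 5p arm in miR-200b reads was 8.33% in the control (5.16% to 12.6%) and 12.9% in overfed liver (8.16% to 19.0%), intervals that overlap. For miR-141, miR-200c and miR-205 a count of 0 allows up to 0.327 RPM in the control and 0.308 in overfed liver (3 counts).

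**Figure D2:**
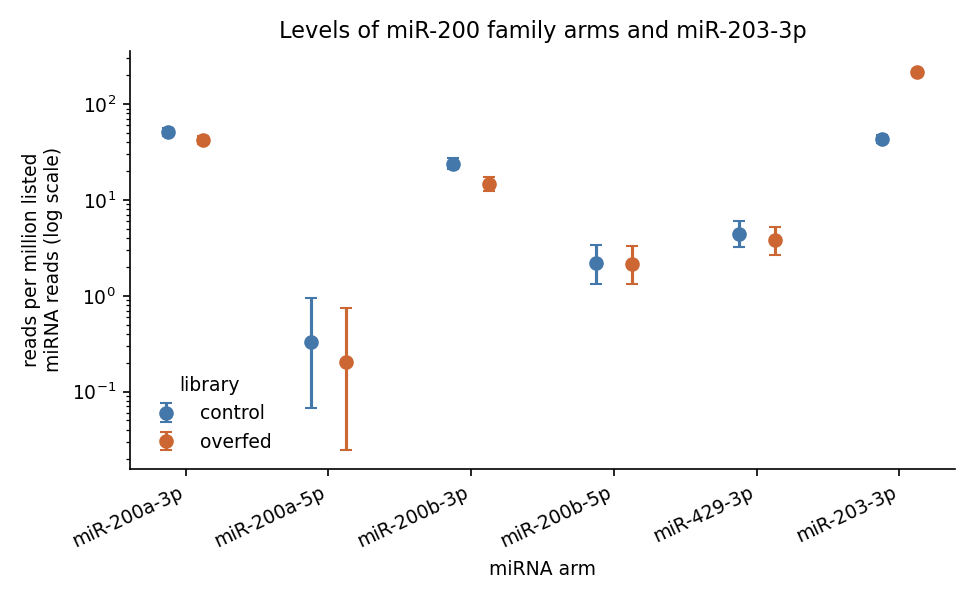
Level of each member arm in RPM (log scale) in the control and overfed libraries, with exact 95% Poisson counting intervals and 1 library per condition. miR-203-3p goes from 43.1 to 219 RPM, while the intervals of both 5p arms and of miR-429-3p overlap between the libraries.

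The order of the read levels changed at its top. In the control library miR-200a-3p came first and miR-203-3p second, and their separate counting intervals just overlapped (47.0 to 56.4 against 39.0 to 47.6 RPM). Compared directly, miR-203-3p held 45.6% of the control reads of this pair (42.2% to 48.9%). That is less than an equal share, so miR-200a-3p was the higher beyond counting error. In the overfed library miR-203-3p was first (210 to 228 RPM) and its interval lay apart from that of miR-200a-3p. miR-200b-3p, miR-429-3p, miR-200b-5p and miR-200a-5p followed in that order in both libraries. The separate intervals of miR-429-3p (41 and 37 reads) and miR-200b-5p (20 and 21 reads) overlapped, which alone does not decide whether their levels differ.

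The family's members were also compared with each other. The miR-200a-3p reads per miR-200b-3p read numbered 2.15 in the control and 2.89 in overfed liver, a log2 difference of 0.43 (0.06 to 0.80). miR-429-3p against miR-200b-3p gave 0.48 (-0.27 to 1.24) and miR-200a-3p against miR-429-3p -0.06 (-0.77 to 0.65), neither beyond counting error. Grouped by the seed of the reference, miR-200a-3p stood against the sum of miR-200b-3p and miR-429-3p at 0.34 (-0.01 to 0.68). That sum by name was 28.4 RPM in the control and 18.4 in overfed liver (log2 ratio -0.63, -0.91 to -0.35). It includes reads that start inside the reference and so carry another seed. With tags of 21 bases or longer the difference between the seed groups was 0.03 (-0.39 to 0.45).

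**Figure D3:**
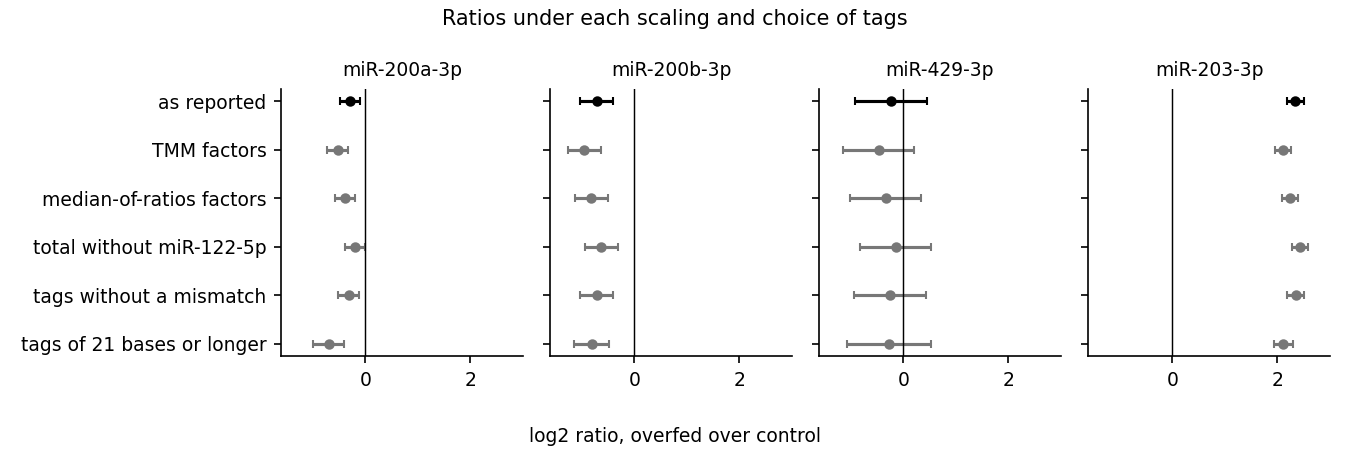
Log2 ratio of overfed over control with its 95% counting interval for 4 member arms, as reported and under other scalings and choices of tags. miR-200a-3p and miR-200b-3p stay below 0 in each of the settings drawn, miR-203-3p stays between 2.11 and 2.44, and each interval of miR-429-3p spans 0.

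Where a miRNA read starts fixes its seed, and miR-203-3p was read from both of 2 neighbouring starts. Its 4 most common forms over both libraries are shown because their starts and ends differ, with bases 2 to 8 of each read in capitals.
miR-203-3p form 1: gTGAAATGtttaggaccacttg
miR-203-3p form 2: tGAAATGTttaggaccacttg
miR-203-3p form 3: tGAAATGTttaggaccactt
miR-203-3p form 4: tGAAATGTttaggaccact
Form 1 is the 22-base reference. Form 2 lacks its first base, which moves the seed by 1 base, and forms 3 and 4 are form 2 with 1 and 2 fewer bases at the 3′ end.

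The start at reference base 1 had 200 control and 890 overfed reads, or 21.8 and 91.4 RPM, a log2 ratio of 2.07 (1.85 to 2.30). The start at base 2 had 194 and 1212 reads, or 21.1 and 124 RPM, a log2 ratio of 2.56 (2.34 to 2.78). The counting intervals of both ratios lay wholly above the 2-times mark. The share of reads starting at base 2 was 49.0% in the control (44.0% to 54.0%) and 56.8% in overfed liver (54.7% to 59.0%), a log2 odds difference of 0.46 (0.14 to 0.77). That share was higher beyond counting error for 10.2% (13) of the 128 miRNAs that had 100 reads or more in both libraries. An interval could be formed for 94 of the 128, as the others had a library without such reads. By the size of the share, miR-203-3p ranked 4th of the 128 in the control and 3rd in the overfed library, where the median miRNA had 0.600% and 0.465%.

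The share of the second start was also taken within classes of read length and 3′ end. Among miR-203-3p reads of 21 bases or longer it was 41.3% in the control and 40.3% in overfed liver, a log2 odds difference of -0.06 (-0.44 to 0.32). Among reads that end at reference base 22 the share was 37.6% and 44.1% (0.39, -0.09 to 0.87). Among those that end at base 20 it was 52.0% and 72.8% (1.31, 0.38 to 2.23). For ends at base 21 it was 58.7% and 62.9% (0.26), with an interval that spanned 0. At base 23 the level ratio was lower for the start at base 2 (1.60) than at base 1 (2.08), with intervals that overlapped. Among reads of 21 bases or longer a difference was not detectable at this depth. That cut drops reads from base 2 that end at base 21 and keeps those from base 1. It therefore does not compare the starts at the same 3′ ends.

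The 4 forms differed in their ratios. Form 1 stood at 114 and 463 reads, a log2 ratio of 1.94 (1.64 to 2.25), and form 2 at 65 and 342 reads, a log2 ratio of 2.31 (1.92 to 2.72). Form 3 stood at 42 and 349 reads (2.97, 2.50 to 3.47) and form 4 at 26 and 299 reads (3.44, 2.86 to 4.08). All 4 were higher in the overfed library beyond counting error, and the shorter the form the higher the ratio among those that start at base 2. Over all reads with that start, the log2 ratio was 3.46 (2.88 to 4.10) for ends at base 20 and 2.91 (2.46 to 3.40) at base 21. It was 2.30 (1.93 to 2.68) at base 22 and 1.60 (1.03 to 2.20) at base 23. Reads from base 1 showed no such order in their point values for the same ends. These were 1.97 (1.32 to 2.68), 2.65 (2.09 to 3.26), 1.91 (1.62 to 2.21) and 2.08 (1.41 to 2.80). For the start at base 2 the interval of ends at base 20 lay above those at bases 22 and 23, while for base 1 all these intervals overlapped. Intervals of neighbouring ends overlapped for both starts, and those of the 2 starts overlapped at each of these ends but base 20. Whether the starts differ in this order is therefore not settled by these counts.

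**Figure D4:**
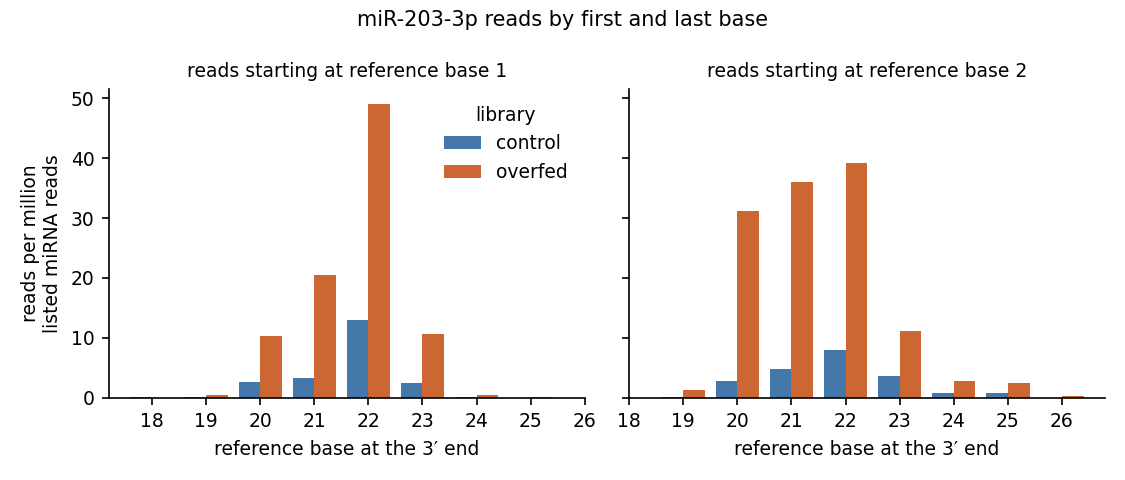
miR-203-3p reads in RPM by the reference base at which they end, for reads starting at base 1 (left) and base 2 (right), in the control and overfed libraries. Reads from base 2 ending at base 20 stand at 2.83 and 31.1 RPM, and those from base 1 ending at base 22 at 13.1 and 49.1.

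Shorter reads made up more of each of the 3 members with enough reads. Reads of 18 to 20 bases were 24.7% of miR-203-3p reads in the control (20.6% to 29.3%) and 36.6% in overfed liver (34.5% to 38.7%). For miR-200a-3p they were 45.5% (40.9% to 50.1%) and 59.3% (54.3% to 64.1%), and for miR-200b-3p 5.91% (3.18% to 9.89%) and 12.7% (7.69% to 19.3%). Such shares were higher in the overfed library beyond counting error for 35.9% (46) of the 128 miRNAs, and for all 3 members. An interval could be formed for 120 of the 128. Over all listed reads the share of 18 to 20 bases was 4.15% and 5.29%, and without miR-122-5p 8.27% and 11.1%. The gel step of the preparation took fragments of 20 to 30 nt, so reads of 20 bases lie at its lower edge and those of 18 and 19 below it. The part of this shift in the members' ratios was not tested.

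Short and long reads of miR-200a-3p differed in their ratios. Its most common form and the full-length form are shown for their different 3′ ends.
miR-200a-3p, 20 bases: tAACACTGtctggtaacgat
miR-200a-3p, 23 bases: tAACACTGtctggtaacgatgtt
The 20-base form had 189 control and 185 overfed reads, a log2 ratio of -0.12 (-0.42 to 0.18), whereas the 23-base form had 109 and 65 reads, a log2 ratio of -0.83 (-1.30 to -0.37). Summed by length, miR-200a-3p reads of 18 to 20 bases had a log2 ratio of 0.09 (-0.18 to 0.36) and the longer ones -0.71 (-1.00 to -0.43), a difference in log2 odds of 0.80 (0.41 to 1.20). miR-200b-3p had few short reads, with 13 and 18 of 18 to 20 bases (0.38, -0.73 to 1.53) against -0.82 (-1.16 to -0.50) for the longer ones.

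**Figure D5:**
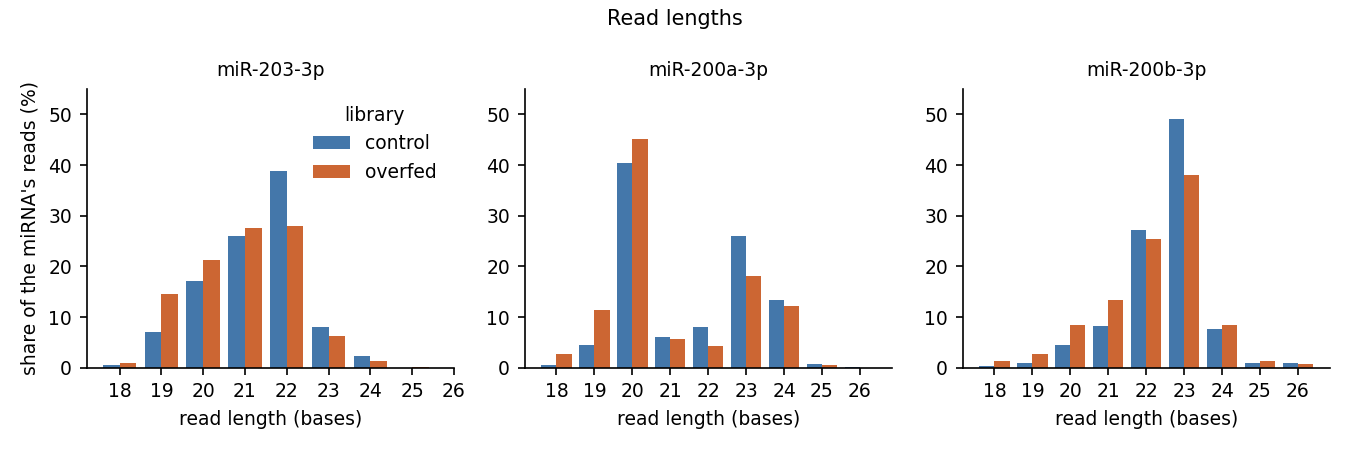
Share of each miRNA's reads (%) by read length in the control and overfed libraries for miR-203-3p, miR-200a-3p and miR-200b-3p. Reads of 22 bases are 38.9% of control and 27.9% of overfed miR-203-3p reads, and miR-200a-3p has separate peaks at 20 and 23 bases in both libraries.

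Starts away from the reference also occurred in miR-200b-3p, though not in the same way. The form that lacks the first 2 bases, again with bases 2 to 8 in capitals, is shown as an example of a moved seed.
miR-200b-3p from base 3: aTACTGCCtggtaatgatgattt
Reads starting at base 3 were 16.8% of miR-200b-3p reads in the control (37 of 220) and 14.1% in overfed liver (20 of 142), and did not differ beyond counting error (log2 odds -0.30, -1.24 to 0.60). Of miR-200a-3p reads, 97.0% and 97.3% started at base 1, so its seed was nearly uniform. Counted by what stands at bases 2 to 8 of the read itself, the seed of form 1 of miR-203-3p stood at 21.7 and 91.2 RPM (log2 ratio 2.07) and that of forms 2 to 4 at 21.1 and 124 RPM (2.55). The seed of miR-200a-3p stood at 50.0 and 40.9 RPM (-0.29), and that of miR-200b-3p and miR-429-3p at 23.6 and 15.7 RPM (-0.59).

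The best matching names came from several species. Chicken names held 85.9% of miR-203-3p reads in the control and 79.4% in overfed liver, and 63.6% and 52.1% of miR-200b-3p reads. Most other miR-203-3p reads carry the mouse name, led by tags shortened at the 3′ end. miR-200a-3p reads carry mammalian names, apart from 2 reads under a fish name, and miR-429-3p reads the names of mouse, opossum and clawed frog. Reads without a mismatch made up 94.7% and 96.2% of miR-203-3p, 97.9% and 97.3% of miR-200a-3p and 95.5% and 96.5% of miR-200b-3p.

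Other epithelial miRNAs were taken from a list of 12 names, the miR-183, miR-96 and miR-182 cluster, miR-31, the miR-34 members, miR-192, miR-194, miR-215, miR-375 and miR-184. Of 22 arms with reads, 3 had a mean of at least 10 RPM, and 2 of these were at least 2 times higher, against 7.19% of the 139 miRNAs. The list was chosen with earlier results of these data known, so this count is no independent result about epithelial miRNAs. miR-184-3p, known from the cornea, had 390.0 and 783 RPM, a log2 ratio of 1.01 (0.95 to 1.06), which was 0.77 with TMM and 0.91 with median-of-ratios factors. With either of these scalings 1 of the 3 listed arms, miR-375, was at least 2 times higher, and the miRNAs at least 2 times higher among all past the minimum numbered 3 and 7 in place of 10. miR-375, known from pancreatic islets and gut endocrine cells, had 67.0 and 168 RPM (1.33, 1.19 to 1.46). miR-215, a miRNA of gut epithelium, stood at 21.7 and 26.1 RPM (0.27, -0.01 to 0.54). miR-183-5p and miR-182-5p had no more than 6 reads in either library. miR-96 had 7 reads in the control and 2 in overfed liver (-1.89, -5.20 to 0.50).

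By likeness of log2 ratio among the 139 miRNAs, the nearest to miR-203-3p were miR-222-3p (1.56), miR-375 (1.33) and miR-4492 (1.20), with gaps of 0.78, 1.02 and 1.14. Nearest to miR-200a-3p were miR-199-3p (-0.29), miR-146a-5p (-0.30) and miR-30a-3p (-0.28), and nearest to miR-200b-3p were miR-148a-3p (-0.69), miR-30c-5p (-0.67) and miR-30a-5p (-0.79). Each likeness rests on 1 ratio from 2 libraries.

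Marker miRNAs of the cell types that a liver sample can hold were summed beside these values. Over all 139 miRNAs past the minimum, 44.6% were higher and 30.9% lower beyond counting error. Single arms called so in the lists below were therefore common in these libraries. The hepatocyte list (miR-122, miR-148a, miR-192, miR-194) stood at 727250 and 744245 RPM, nearly all of it miR-122-5p. Arms of miR-192 and miR-194, which the epithelial list also holds, had no more than 14 reads in either library. Of the hepatocyte list's 3 arms past the minimum, miR-122-5p (0.034, 0.032 to 0.035) and miR-122-3p (0.48, 0.40 to 0.56) were higher beyond counting error. The other, miR-148a-3p (-0.69, -0.76 to -0.62), was lower beyond counting error. The mesenchymal list (miR-199, miR-214, miR-143, miR-145) stood at 7276 and 6029 RPM, with 5 of its 7 arms past the minimum lower and 1 higher beyond counting error. The leukocyte list stood at 127 and 139 RPM, with miR-223-3p higher (0.62, 0.35 to 0.90) and miR-150-5p lower (-0.46, -0.80 to -0.13) among its 3 arms past the minimum. The red cell list stood at 360 and 318 RPM, with 1 of 3 such arms higher and 2 lower, and the muscle list at 823 and 882, with its 1 such arm higher. Small ratios in these lists depend on the scaling. The TMM shift of -0.24 puts miR-122-5p, the mesenchymal miR-199a-5p (0.15, 0.03 to 0.28) and the muscle miR-1a-3p (0.09, 0.05 to 0.14) below 0. With that shift the interval of the red cell miR-144-5p (0.35, 0.01 to 0.70) spans 0. The pancreas list stood at 67.1 and 168 RPM, nearly all of it miR-375, which the epithelial list also holds, with miR-216 at 0. In the stratified epithelium list miR-205 was at 0 in both libraries, so that list is miR-203 alone. The part of any of these cell types in the miR-203 and miR-200 ratios was not tested, and in whole liver a change in the number of cells of a type and a change in RNA per cell cannot be told apart.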

How the data were processed

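Small RNA of 20 to 30 nt was taken by gel from 10 μg of total liver RNA and made into Illumina libraries, per the labels' protocols. For each library the authors deposited the read count of every distinct tag, whole and not normalized, with its best reference miRNA of any species. They also deposited an alignment score, which was not used. The aligner and miRNA database are not stated in the labels or files, and genome positions are not used here.

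Tags were summed over species by miRNA name and arm. Names of 1 miRNA were joined when references shared at least 16 bases in a row, a star name took the arm left free, and letterless names were merged into lettered ones sharing at least 18 bases and all but 2 of the shorter. Levels are RPM of the listed miRNA reads, where 1 read is worth 0.109 (control) or 0.103 RPM (overfed). These totals hold matched reads only and are not the depth of the whole libraries. Ratios have exact conditional binomial intervals, shares exact Clopper-Pearson intervals, and ratios of ratios exact conditional odds ratio intervals; for read shares over the 128 miRNAs the normal (Woolf) interval was used. Since PCR copies carry no molecular identifiers here, all intervals and floors describe counting error alone. The ratio and interval steps were tested on simulated data. The simulated counts held counting error only, as the intervals assume, so that test checks the calculation and not the variation between birds or libraries.

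The members, lists and rule of size were chosen with earlier results of these data known. The text names all member arms and the listed epithelial miRNAs with a mean of at least 10 RPM. It also names the 3 miRNAs nearest in log2 ratio to each member past that minimum. miR-183-5p, miR-182-5p and miR-96, and the read counts of miR-192 and miR-194, were given after their values were seen. Alternatives were TMM factors (edgeR 4.0.16), median-of-ratios factors (DESeq2 1.42.0), scaling without miR-122-5p, 1 RPM added, other minimums, names not joined, and tags without a mismatch, of at least 21 bases or with bird names. Python 3.11.15 with scipy 1.17.1, pandas 2.3.3, numpy 2.4.6 and matplotlib 3.10.9, and R 4.3.3 were used.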

Additional observations from a re-analysis of the deposited data

How the results depend on the processing

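No paired analysis was possible because there is a single library per condition, so no replicate could be left out either. Each scaling adds 1 constant to all log2 ratios: -0.24 for TMM factors, -0.10 for median-of-ratios factors and 0.09 without miR-122-5p. miR-203 was at 2.11 with TMM factors, 2.11 with tags of at least 21 bases and 2.56 with tags of 18 to 20 bases. The miR-200 family was at -0.63, -0.72 and -0.23 (-0.48 to 0.02) under the same settings, and at -0.83 with bird names, where no miR-200a or miR-429 read is left. The miR-203 to miR-200 ratio of ratios was 3.25 (2.79 to 3.71) with bird names and lay between 2.74 and 2.92 in the other settings run for it. For the seed groups it was -0.058 (-0.77 to 0.65) without miR-200b-3p; without miR-200a-3p, the most abundant member, and for 3p arms, which it already uses, it gave no separate value. miRNAs at least 2 times different numbered 27 (23 higher, 4 lower) when scaled without miR-122-5p, 48 without a minimum and 5 with a minimum of 100 RPM, against 12. Without miR-122-5p every RPM is larger and 194 miRNAs pass the minimum instead of 139; over the same 139 the number was 18 (16 higher, 2 lower). The tags of 18 to 20 bases, the seed groups without miR-200b-3p, the bird names for the ratio of ratios and the count over the same 139 miRNAs were chosen after seeing the data. For single arms, miR-200b-5p was above 0 in 2 settings, at 0.08 without miR-122-5p and 0.12 with tags without a mismatch. Why the values differ by read length was not tested. Members with few reads are limited by depth: the interval of miR-200b-5p ran from -0.97 to 0.94 and that of miR-429-3p from -0.91 to 0.44.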
